A study of Mus musculus with 10 samples.

Results

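The 33 genes described here are expressed by mature oligodendrocytes or build and regulate myelin. They were chosen with earlier results of these data known and were found by name in the array annotation. For each gene the brightest probe set that named it alone was used, which gave 33 of the 30142 genes tested. Microarrays gave their levels in brain tissue of mice that had received a controlled cortical impact, a mechanical blow to the cortex of 1 hemisphere, 7 days earlier. The groups were ipsilateral tissue from the impact site (5 arrays) and contralateral tissue from the matching region of the other hemisphere (5 arrays). Per the labels, all samples came from injured adult mice, male and female, 8 to 12 weeks old, given an impact described as 2 mm, and strain or genotype was not given. No sham-operated or uninjured animal was among the samples, so the contralateral side is itself from an injured brain. The arrays were called biological replicates, and the labels did not say whether arrays of the same number came from 1 mouse or whether animals were pooled.

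Oligodendrocytes wrap axons in myelin, a stack of membrane rich in galactolipids, cholesterol and a small set of proteins. Precursors in the adult brain divide, leave the cell cycle and, under transcription factors such as Olig2, Sox10 and Myrf, switch on the myelin genes in sequence. In cortex, myelin is sparse in the upper layers and denser toward the deep layers and the white matter below. In bulk tissue, fewer oligodendrocytes and less RNA per oligodendrocyte cannot be told apart.

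The start regions of 4 of these genes are shown because they include the 3 genes that passed the test (Opalin, Mal and Plekhh1) and Mog, a classical myelin marker close to the threshold. Of the 33 genes, 24 had a promoter in the RefSeq table of GRCm38.p6, each 250 bases before to 50 bases after a start site. Opalin lies at chr19:41077064-41077363 on the minus strand, Mal at chr2:127656646-127656945 on the minus strand, Plekhh1 at chr12:79028913-79029212 on the plus strand and Mog at chr17:37023349-37023648 on the minus strand. Each is written 5′ to 3′ on the strand of the gene, and capitals mark matches, on either strand, to a MYRF motif (CTGGCAC or CTGGTAC) or a SOX motif (ACAAAG or ACAATG).
Opalin: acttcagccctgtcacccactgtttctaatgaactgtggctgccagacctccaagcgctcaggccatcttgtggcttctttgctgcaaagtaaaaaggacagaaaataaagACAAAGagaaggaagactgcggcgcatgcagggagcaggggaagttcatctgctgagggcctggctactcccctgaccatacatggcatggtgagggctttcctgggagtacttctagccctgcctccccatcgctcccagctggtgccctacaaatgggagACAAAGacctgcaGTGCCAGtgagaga
Mal: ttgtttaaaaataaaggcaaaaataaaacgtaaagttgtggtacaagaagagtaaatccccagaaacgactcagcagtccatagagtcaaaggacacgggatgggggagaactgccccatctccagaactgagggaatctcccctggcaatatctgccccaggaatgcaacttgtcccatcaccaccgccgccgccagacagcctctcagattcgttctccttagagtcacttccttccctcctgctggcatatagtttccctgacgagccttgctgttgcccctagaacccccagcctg
Plekhh1: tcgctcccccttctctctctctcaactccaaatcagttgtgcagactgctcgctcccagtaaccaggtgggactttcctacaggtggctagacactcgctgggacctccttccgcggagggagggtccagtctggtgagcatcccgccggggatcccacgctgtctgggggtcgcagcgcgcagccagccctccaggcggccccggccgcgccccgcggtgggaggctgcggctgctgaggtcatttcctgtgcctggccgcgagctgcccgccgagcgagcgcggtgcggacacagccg
Mog: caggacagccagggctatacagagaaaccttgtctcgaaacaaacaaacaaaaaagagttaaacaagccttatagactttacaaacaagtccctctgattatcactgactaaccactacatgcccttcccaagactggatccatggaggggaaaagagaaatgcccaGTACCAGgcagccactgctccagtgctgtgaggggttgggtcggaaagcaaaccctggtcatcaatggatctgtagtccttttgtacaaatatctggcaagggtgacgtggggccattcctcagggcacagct
Opalin held 3 matches and Mog 1, and the windows of Mal and Plekhh1 held none. The MYRF letters were found at 5 of the 24 genes (Cnp, Lpar1, Mag, Mog and Opalin) and at 8.10% of all genes in the table, and the SOX letters at 12 of the 24 and at 31.7% of all genes. In these 4 windows no MYRF match overlapped a SOX match, and a match is a description of sequence alone.

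Values below are deposited log2 signals, on which a difference of 1 is a 2-fold change, and genes count as called where limma's two-sided p, adjusted by Benjamini-Hochberg over all 30142 genes, was under 0.05. Array medians lay between 4.79 and 4.84 ipsilaterally and between 4.71 and 4.77 contralaterally. Precision is limited by having 5 arrays a side. Neuron markers had a median level of 13.94 ipsilaterally and 14.15 contralaterally, and peripheral myelin and Schwann cell markers one of 5.45 ipsilaterally and 5.35 contralaterally.

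Most of the myelin and oligodendrocyte genes had lower means at the impact site, but only 3 of 33 passed the test. Opalin, Mal and Plekhh1 were lower, which is 9.09% of the list against 4.33% of all genes called lower. With the replicate number added to the fit as a block, these 3 calls ended (adjusted p from 0.0646 to 0.0933 in limma). None of the 33 was higher in limma, against 1.22% of all genes. Means were lower for 29 of 33 genes (43.6% of all genes), and the median log2 fold change was -0.66 against 0.02 over all genes. At least 2-fold lower means were seen for 9 of 33 genes, against 0.541% of all genes. At an unadjusted p under 0.05, 18 of the 33 were lower and 0 higher, against 11.3% and 10% of all genes. These shares are a description only. The 33 genes were chosen with earlier results known and vary together between arrays, and the set of all genes includes dim ones.

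**Figure D1:**
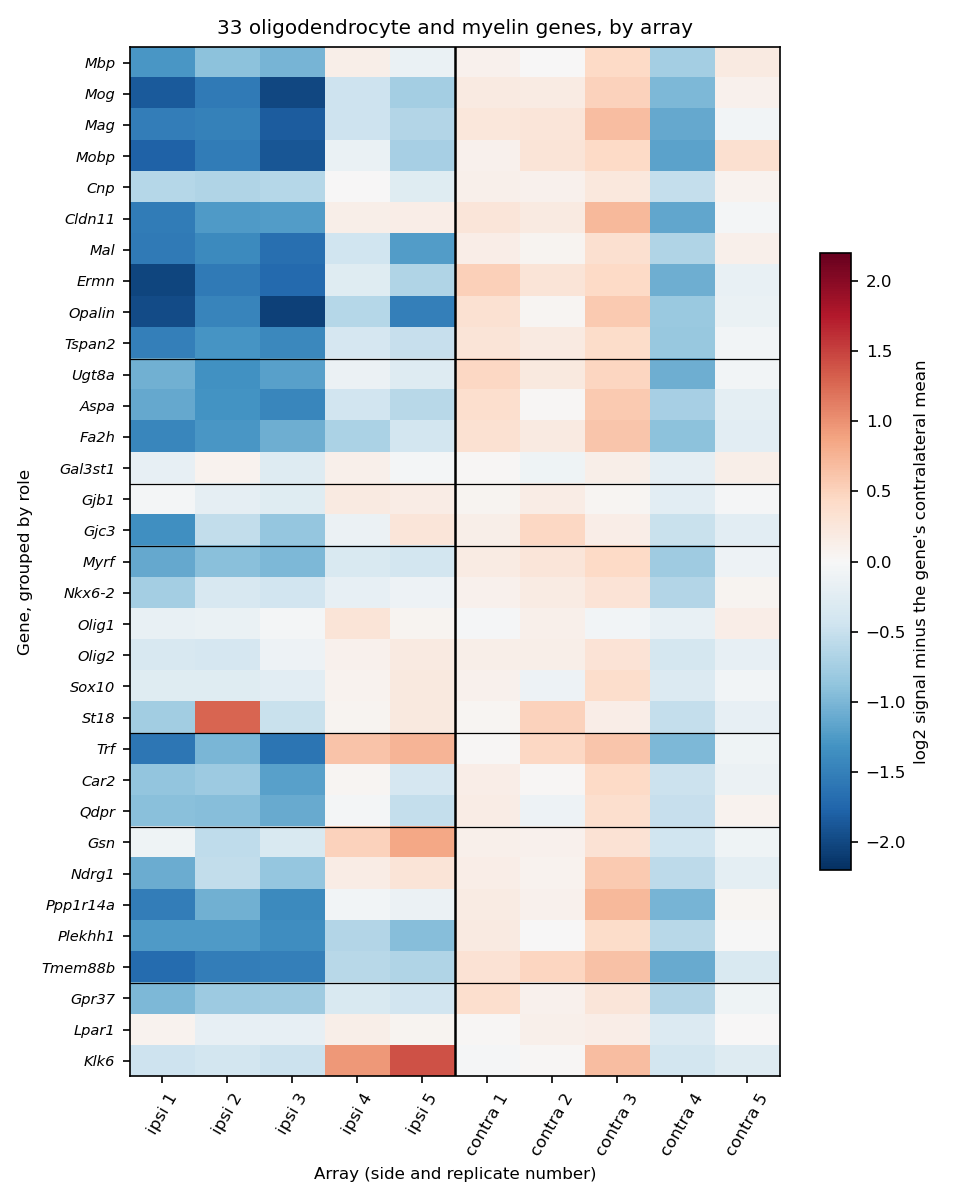
Each row is 1 of the 33 genes, each column 1 array (5 ipsilateral, then 5 contralateral), and colour gives the log2 signal minus the mean of that gene's contralateral arrays. Ipsilateral replicates 1, 2 and 3 are low for most genes, and contralateral replicate 4 is the lowest of its side in all 33 rows.

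Among the 10 genes of myelin membrane and adhesion proteins all 10 had lower ipsilateral means, with log2 fold changes from -1.52 to -0.44, and 2 passed the test. Opalin encodes a transmembrane glycoprotein of mature oligodendrocytes. Its signals were 7.69, 8.20, 7.60, 9.03 and 8.15 on ipsilateral arrays 1 to 5, against 10, 9.70, 10.24, 8.84 and 9.51 on contralateral arrays 1 to 5. Ipsilateral replicate 4 stood above contralateral replicate 4, and otherwise the groups did not overlap. The log2 fold change of Opalin was -1.52 ± 0.31 (SE, adjusted p = 0.0164 in limma), a 2.88-fold lower level. Without contralateral replicate 1 the adjusted p in limma was 0.0526, which ended the call.

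Mal encodes a small proteolipid of membrane rafts that takes part in sorting myelin cargo. Ipsilateral arrays 1 to 5 gave 12.44, 12.60, 12.34, 13.56 and 12.76 for Mal, and contralateral arrays 14.14, 14.06, 14.34, 13.33 and 14.11. The overlap was again ipsilateral replicate 4 with contralateral replicate 4. Mal fell by 1.26 on the log2 scale (SE 0.24, adjusted p = 0.0148 in limma), and it was called without each of the 10 arrays in turn, with adjusted p from 0.00471 to 0.0462.

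Mog, the glycoprotein on the outermost myelin surface, had 7.66, 7.95, 7.50, 9.06 and 8.76 ipsilaterally against 9.70, 9.69, 10.02, 8.53 and 9.61 contralaterally. The difference for Mog was -1.32 ± 0.35 on the log2 scale (SE, adjusted p = 0.0537 in limma). For Mag, the adhesion molecule of the innermost wrap facing the axon, the log2 fold change was -1.19 (adjusted p = 0.0814). For Mobp, a basic protein of compact myelin, the value was -1.21 (adjusted p = 0.102), and for Ermn, a cytoskeletal protein of the sheath, -1.24 (adjusted p = 0.0927). The tetraspanin gene Tspan2 stood at -1.02 (adjusted p = 0.0670). In these genes ipsilateral replicates 1, 2 and 3 lay below every contralateral array, and ipsilateral replicates 4 and 5 lay above contralateral replicate 4.

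Mbp, which holds the cytoplasmic faces of compact myelin together, had 10.98, 11.36, 11.23, 12.38 and 12.10 ipsilaterally against 12.34, 12.26, 12.70, 11.51 and 12.46 contralaterally. Ipsilateral replicate 4 was inside the range of contralateral replicates 1, 2, 3 and 5. The log2 fold change of Mbp, -0.64, had a 95% confidence interval of -1.29 to 0.0025 in the fit (adjusted p = 0.237 in limma). Cnp, an enzyme of the cytoplasmic channels of myelin, had a log2 fold change of -0.44 ± 0.17 (SE), with a spread of 0.29 (SD) ipsilaterally and 0.30 contralaterally (n = 5 each, adjusted p = 0.165 in limma). Cldn11, the tight junction protein of the myelin sheath that meningeal cells also make, stood at -0.75 (adjusted p = 0.340).

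**Figure D2:**
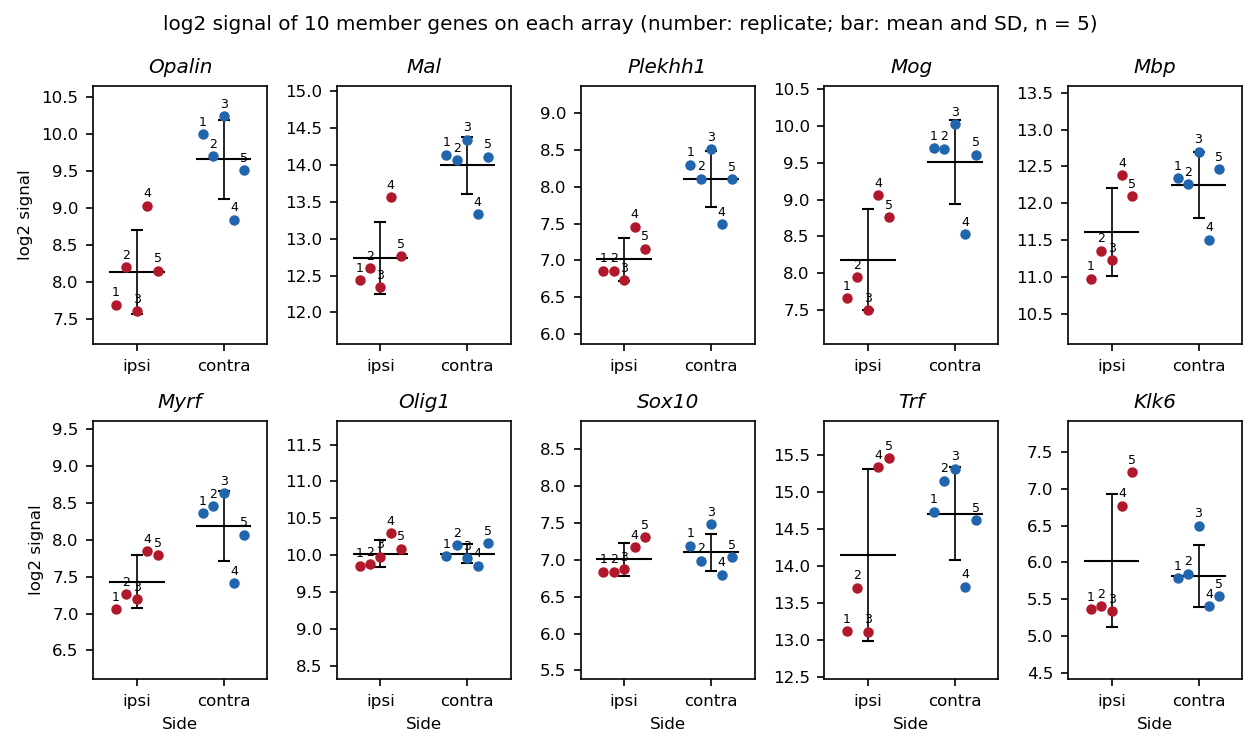
Points are the log2 signals of 10 genes on each array, numbered by replicate, ipsilateral on the left and contralateral on the right, with bars at the mean and SD (n = 5 each). Opalin, Mal, Plekhh1, Mog, Mbp and Myrf sit lower ipsilaterally, Olig1 and Sox10 differ little, and Trf and Klk6 split ipsilateral replicates 4 and 5 from 1, 2 and 3.

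All 4 enzymes of myelin lipid metabolism had lower ipsilateral means, with log2 fold changes from -0.98 to -0.06. Ugt8a, which adds galactose to ceramide, had 8.92, 8.65, 8.78, 9.86 and 9.70 ipsilaterally against 10.44, 10.19, 10.46, 8.90 and 9.92 contralaterally, a log2 fold change of -0.80 ± 0.33 (adjusted p = 0.196 in limma). Fa2h, which hydroxylates the fatty acids of these lipids, had a value of -0.97 (adjusted p = 0.0769), and Aspa, which releases acetate from N-acetylaspartate, one of -0.98 (adjusted p = 0.0591). Gal3st1, whose product sulfates galactosylceramide to sulfatide, lay between 6.85 and 7.23 ipsilaterally and between 6.92 and 7.26 contralaterally. Its log2 fold change was -0.06, with a 95% confidence interval of -0.28 to 0.15. None of the 4 passed in limma, and 3 were lower at an unadjusted p under 0.05.

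Of the connexins, which couple oligodendrocytes and line the layers of myelin, Gjc3 had 10.88, 11.69, 11.37, 12.10 and 12.49 ipsilaterally and 12.35, 12.68, 12.38, 11.73 and 12.00 contralaterally (log2 fold change -0.52, adjusted p = 0.328 in limma). Gjb1, the other connexin, had means of 4.58 ipsilaterally and 4.61 contralaterally, below the median of every array, where signal above background was not shown.

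The 6 transcription factors of the lineage had a median log2 fold change of -0.10, against -1.20 for the 10 membrane genes, a contrast that was not tested, and none passed in limma (1 lower at an unadjusted p under 0.05). Myrf, a membrane-bound factor that starts and maintains myelination, had 7.06, 7.26, 7.20, 7.85 and 7.79 ipsilaterally and 8.36, 8.46, 8.63, 7.41 and 8.07 contralaterally. This gave a log2 fold change of -0.75 ± 0.24 (adjusted p = 0.0946 in limma). Nkx6-2, a homeodomain factor of myelinating cells, had a value of -0.36 (adjusted p = 0.281).

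Olig1, a helix-loop-helix factor present in precursors and mature cells, had 9.86, 9.88, 9.98, 10.30 and 10.09 ipsilaterally and 9.99, 10.14, 9.96, 9.86 and 10.16 contralaterally. Both means were 10.02, with a 95% confidence interval of the difference from -0.21 to 0.21 on the log2 scale. Its relative Olig2, needed to specify the lineage, had a log2 fold change of -0.11 (interval -0.44 to 0.22), and Sox10, which is present at all stages of the lineage, one of -0.09 (interval -0.40 to 0.21). None of these 3 passed in limma (0 at an unadjusted p under 0.05), and with 5 arrays a side a difference within these intervals is not excluded.

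St18, a zinc-finger factor, stood at 8.16 on ipsilateral replicate 2, while the other ipsilateral arrays lay between 6.10 and 7.09 and the contralateral arrays between 6.35 and 7.38. The array with the highest St18 on each side, number 2 in both cases, also had the highest mean level of 8 choroid plexus markers on their side (8.89 ipsilaterally and 9.58 contralaterally, where the other arrays lay between 5.67 and 7.33 and between 5.44 and 6.93). The part of choroid plexus tissue in the St18 values was not tested.

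The mean of the 10 membrane genes minus the mean of Olig1, Olig2 and Sox10 was taken within each array. Only a log2 shift of equal size in both sets cancels in it. On contralateral replicate 4 both sets were low by unequal amounts, so the shift of that array did not cancel. This difference of log2 means was 1.19, 1.45, 1.08, 2.10 and 1.71 on ipsilateral arrays 1 to 5, and 2.66, 2.61, 2.77, 1.87 and 2.57 on contralateral arrays 1 to 5. The difference was smaller on ipsilateral arrays, except that ipsilateral replicate 4 exceeded contralateral replicate 4. It is given as a description of genes chosen with their values known, with no test.

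Of the 3 genes of iron, pH and cofactor metabolism, none passed in limma (2 lower at an unadjusted p under 0.05). Trf, the iron carrier transferrin, which choroid plexus also makes, gave 13.12, 13.71, 13.11, 15.34 and 15.46 ipsilaterally and 14.74, 15.16, 15.32, 13.72 and 14.62 contralaterally. Ipsilateral replicates 4 and 5 were the highest of all 10 arrays for Trf, and the other ipsilateral arrays were the lowest. Its SD was 1.17 ipsilaterally, larger than that of 99.7% of genes, and its log2 fold change was -0.56 ± 0.51 (adjusted p = 0.585 in limma). Car2, a carbonic anhydrase, stood at -0.64 (adjusted p = 0.144), and Qdpr, which regenerates tetrahydrobiopterin, at -0.70 (adjusted p = 0.0851).

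Plekhh1, a pleckstrin homology domain protein, was the only 1 of the 33 genes whose groups did not overlap, and it was lower, where 5.21% of all genes were lower and 2.04% higher without overlap. Ipsilateral arrays 1 to 5 had 6.86, 6.86, 6.73, 7.46 and 7.16, against 8.30, 8.11, 8.51, 7.49 and 8.10 on contralateral arrays. Plekhh1 fell by 1.09 on the log2 scale (SE 0.19, adjusted p = 0.00901 in limma). Leaving out each array in turn gave adjusted p from 0.00198 to 0.0317. The small transmembrane protein gene Tmem88b stood at a log2 fold change of -1.20 (adjusted p = 0.0744), and Ppp1r14a, an inhibitor of myosin phosphatase, -0.84 (adjusted p = 0.219). Ndrg1, a stress-responsive gene, stood at -0.41 (adjusted p = 0.469). Gsn, an actin-severing protein made by several cell types, had 8.30, 7.84, 8.06, 8.90 and 9.24 ipsilaterally and 8.50, 8.48, 8.71, 7.96 and 8.30 contralaterally, and its log2 fold change was 0.08 (adjusted p = 0.902).

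Among the receptors, Gpr37, a G protein-coupled receptor of oligodendrocytes, had 8.74, 8.93, 8.94, 9.39 and 9.30 ipsilaterally and 10.10, 9.81, 9.99, 9.08 and 9.63 contralaterally. Its log2 fold change was -0.66 ± 0.19 (adjusted p = 0.0752 in limma). Lpar1, a receptor for lysophosphatidic acid, lay between 5.91 and 6.23 ipsilaterally and between 5.80 and 6.25 contralaterally, with a log2 fold change of -0.02 (interval -0.24 to 0.20). Klk6, a secreted serine protease, had 5.37, 5.41, 5.34, 6.77 and 7.22 ipsilaterally and 5.79, 5.85, 6.5, 5.41 and 5.54 contralaterally. Klk6 had the largest positive fold change of the 33 genes, 0.20 ± 0.39 (adjusted p = 0.822). It rested on ipsilateral replicates 4 and 5, and without ipsilateral replicate 5 it was -0.10.

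The 33 genes shared their order of arrays within each side. Contralateral replicate 4 was the lowest contralateral array for 33 of 33 genes, against 25% of all genes, and stood below the mean of the other 4 arrays by a median log2 difference of -0.81, from -1.46 (Mobp) to -0.20 (Olig1). Contralateral replicate 3 was the highest contralateral array for 27 of the 33, a count whose share over all genes was not taken. On the ipsilateral side, replicates 4 and 5 both lay above replicates 1, 2 and 3 for 29 of 33 genes, against 18.9% of all genes. Ipsilateral replicates 1, 2 and 3 all lay below the lowest contralateral array for 21 of 33 genes, against 7.87% of all genes. The mean level over the 33 genes was 8.73, 8.94, 8.76, 9.69 and 9.57 on ipsilateral arrays 1 to 5 and 9.95, 9.93, 10.18, 9.09 and 9.72 on contralateral arrays 1 to 5. Ipsilateral replicates 4 and 5 were thus above contralateral replicate 4 and below the other contralateral arrays. The median SD of the genes was 0.52 ipsilaterally and 0.42 contralaterally, against 0.16 ipsilaterally and 0.12 contralaterally over all genes. The set of all genes includes dim ones and was not matched to the 33 genes in signal level.

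The number of called genes depended on contralateral replicate 4. Without that array 17 of 33 genes were lower, against 3.94% of all genes, and 0 were higher in limma, against 1.28% of all genes (0 of 33 at an unadjusted p under 0.05). The 14 genes added were Mog, Mag, Mobp, Cnp, Ermn, Tspan2, Ugt8a, Aspa, Fa2h, Myrf, Nkx6-2, Qdpr, Tmem88b and Gpr37. The log2 fold changes of Mog, Mag, Mobp and Ermn were then -1.57, -1.47, -1.51 and -1.51, with adjusted p from 0.0173 to 0.0341 in limma. Mbp at -0.83 (adjusted p = 0.126) and Cldn11 at -1.04 (adjusted p = 0.159) did not pass, nor did Olig1, Olig2 or Sox10 (adjusted p from 0.473 to 0.868). Every ipsilateral array lay below contralateral replicates 1, 2, 3 and 5 for 17 of the 33 genes, against 6.54% of all genes. Without ipsilateral replicate 4, 8 genes were lower, against 3.31% of all genes. Contralateral replicate 4 was singled out because it was the lowest of its side for all 33 genes. Leaving it out therefore raised their contralateral means by construction, and the counts without it are a description only. Why contralateral replicate 4 was low was not tested, and the fit on all 10 arrays remains the main result.

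**Figure D3:**
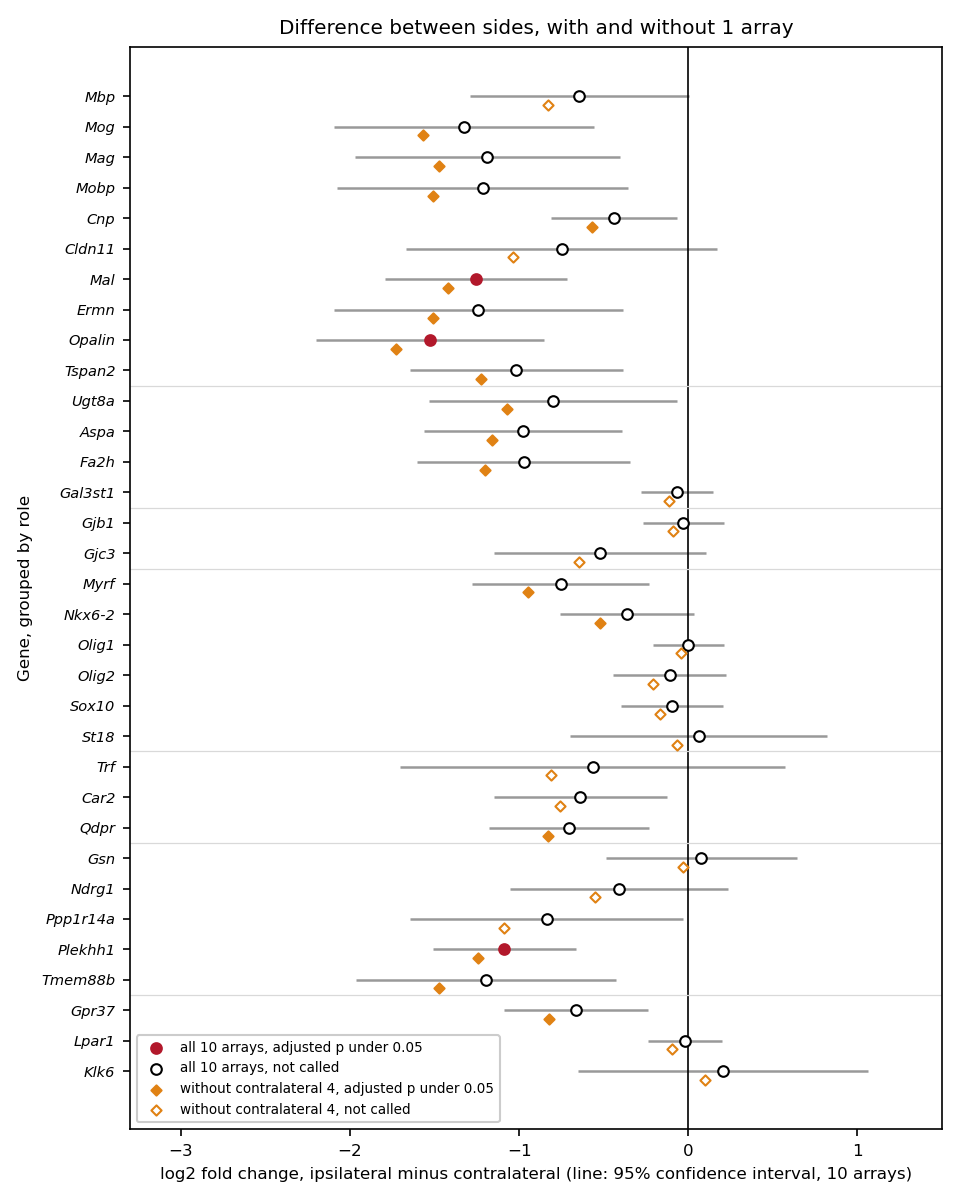
Circles are log2 fold changes (ipsilateral minus contralateral) over 10 arrays with their 95% confidence intervals, filled where the adjusted p is under 0.05, and diamonds are the values without contralateral replicate 4. Filled symbols number 3 with all arrays and 17 without that array, while Gal3st1, Gjb1, Olig1, Olig2, Sox10, St18, Gsn, Lpar1 and Klk6 stay near 0.

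Scaling also moved the count. With each array centred on its median, 11 of 33 genes were lower, against 8.70% of all genes, and the calls over all genes were then 232 higher and 2623 lower (8.13% higher) in place of 369 and 1305 (22.0% higher). Under quantile and cyclic loess scaling 3 genes each were lower, against 5.06% and 3.96% of all genes.

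A further list of mature oligodendrocyte genes also had mostly lower means. Of 29 measured genes, 25 had lower means, against 43.6% of all genes, and the median log2 fold change was -0.37. In limma 2 of the 29 were lower, against 4.33% of all genes, and 0 were higher. At an unadjusted p under 0.05, 18 were lower, against 11.3% of all genes, and 1 was higher. The list was chosen with earlier results known, so these shares are a description only. Contralateral replicate 4 was the lowest of its side for 27 of the 29, against 25% of all genes. Grm3, a metabotropic glutamate receptor that astrocytes and neurons also express, had 13.19, 12.69, 12.91, 13.05 and 12.64 ipsilaterally against 14.39, 14.03, 14.25, 13.84 and 14.29 contralaterally. It fell by 1.26 (adjusted p = 0.000994 in limma), and its ipsilateral replicates 4 and 5 did not stand above the others. Hhip, a hedgehog-binding protein, fell by 0.71 (adjusted p = 0.0287), a call that ended without ipsilateral replicate 2 or 3 or contralateral replicate 1, 2, 3 or 5, where its adjusted p reached 0.0802.

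Markers of oligodendrocyte precursors had mostly higher means. Of 12 listed genes, 11 were measured. Of these 11, 8 had higher and 3 lower means, where 43.6% of all genes had lower means. The positive log2 fold changes ran from 0.004 to 0.81, and the median was 0.14 against 0.02 over all genes. In limma 1 of the 11 was higher, against 1.22% of all genes, and 0 were lower (4 and 0 at an unadjusted p under 0.05). These shares are a description only. Ptprz1, a receptor phosphatase of precursors and astrocytes, rose by 0.40 on the log2 scale (13.91 ± 0.18 ipsilaterally against 13.50 ± 0.14 contralaterally, SD, n = 5 each, adjusted p = 0.0407 in limma). That call ended without ipsilateral replicate 3, 4 or 5 or contralateral replicate 1, 2, 3 or 5, where its adjusted p reached 0.10, and under median, quantile and loess scaling and trended variance. Of 14 other regulators of the lineage, 1 was lower and 0 were higher in limma (5 and 3 at an unadjusted p under 0.05). Id2, an inhibitor of helix-loop-helix factors that cortical neurons also express, fell by 0.86 (14.12 ± 0.38 ipsilaterally against 14.99 ± 0.14 contralaterally, SD, adjusted p = 0.0130). Of 14 sphingolipid and galactolipid genes, none passed in limma (2 lower and 2 higher at an unadjusted p under 0.05). The largest statistics there were those of Psap, the saposin precursor, at 0.23 (adjusted p = 0.0814), and Pllp, the myelin proteolipid plasmolipin, at -0.86 (adjusted p = 0.129). Pllp was also counted in the further list of mature oligodendrocyte genes.

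Of 14 genes of nodes, paranodes and axonal contact, where axon and myelin meet, 7 were lower in limma, against 4.33% of all genes. None was higher in limma (11 lower and 1 higher at an unadjusted p under 0.05). Kcna2 and Kcna1, potassium channels that sit beside the paranode, had log2 fold changes of -1.04 ± 0.15 and -0.93 ± 0.15 (SE, adjusted p = 0.00387 and 0.00509 in limma). Cntnap1, the axonal adhesion protein of the paranodal junction, fell by 0.88 (adjusted p = 0.0113) and the scaffold gene Ank3 by 0.54 (adjusted p = 0.00943). Their groups did not overlap. Contralateral replicate 4 was again the lowest contralateral array for each of them, and it lay above the ipsilateral arrays. Kcna2 stood at 11.65, 11.22, 11.40, 10.75 and 11.21 ipsilaterally and at 12.54, 12.31, 12.34, 12 and 12.25 contralaterally. These 4 are neuronal genes.

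Lists of markers of other cell types and of cortical layers were set beside these genes. Of 11 neocortical layer genes, 5 were lower and 1 higher, and their mean level was 8.99 to 9.39 on ipsilateral arrays against 9.66 to 9.84 on contralateral arrays. Tbr1, Cux2, Lamp5 and Rorb, which mark neurons of particular layers, had log2 fold changes of -1.09, -0.77, -2.24 and -1.25 (adjusted p from 0.00152 to 0.00291 in limma). The layer gene called higher was Bcl11b, at 0.86 (adjusted p = 0.0106 in limma), and its groups did not overlap. Of 10 neuron markers, 7 had lower and 3 higher means, with a median log2 fold change of -0.19. In limma 3 were lower and 0 higher (4 and 0 at an unadjusted p under 0.05). Nefm and Nefl, subunits of axonal neurofilaments, had log2 fold changes of -1.0 and -0.89, and the nuclear marker Rbfox3 one of -0.54. The Nefl call ended without contralateral replicate 1 (adjusted p = 0.0521 in limma). Of 10 microglia and macrophage markers all 10 had higher means and none passed in limma (9 higher and 0 lower at an unadjusted p under 0.05). C1qb, a complement subunit, and Cd68, a lysosomal protein of phagocytes, had log2 fold changes of 1.83 (adjusted p = 0.0580) and 1.82 (adjusted p = 0.0901). Of 10 astrocyte markers, 7 had higher and 3 lower means. In limma 1 was higher and 0 lower (5 and 1 at an unadjusted p under 0.05). The called gene was the water channel gene Aqp4, which rose by 0.95 (adjusted p = 0.0117). Of 9 meningeal and fibroblast markers Dcn and Col1a1 rose, by 2.88 and 0.80. The Dcn call ended without ipsilateral replicate 2, 4 or 5 or contralateral replicate 1, 3 or 5, where its adjusted p reached 0.0672, and that of Col1a1 without ipsilateral replicate 3 or 4 or any 1 contralateral array (reaching 0.0963) and under quantile scaling (0.0613).

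The ipsilateral arrays with more oligodendrocyte signal also had more glial and less neuronal signal. Ipsilateral replicates 4 and 5 had the highest mean levels of the microglia markers (10.74 and 10.50, with 8.97 to 9.47 on ipsilateral replicates 1, 2 and 3) and of the astrocyte markers (11.21 and 11.42, with 10.58 to 10.90), and the lowest of the neuron markers (13.38 and 13.39, with 13.67 to 14). Contralateral replicate 4 had mean levels of 8.54 for microglia, 10.39 for astrocyte, 13.92 for neuron and 9.66 for layer markers, where the other contralateral arrays lay between 8.55 and 9.28, 10.47 and 10.76, 13.77 and 13.98, and 9.72 and 9.84. The part of these cell types and layers in the values of the 33 genes was not tested.

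**Figure D4:**
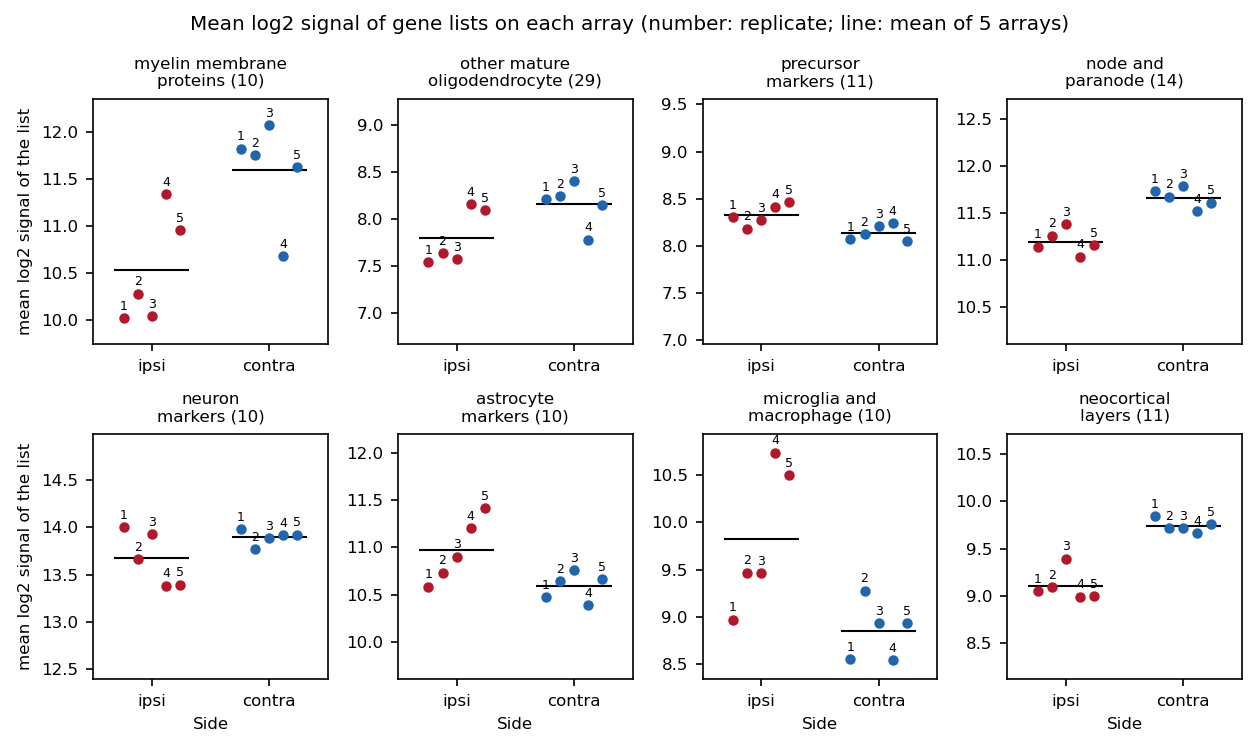
Points are the mean log2 signals of 8 gene lists on each array, numbered by replicate, ipsilateral on the left and contralateral on the right, with a line at the mean of 5 arrays (number of genes in brackets). Contralateral replicate 4 lies inside the ipsilateral range in both mature oligodendrocyte lists and above it in the node and layer lists, and ipsilateral replicates 4 and 5 stand above the other ipsilateral arrays in the oligodendrocyte, astrocyte and microglia lists.

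Of the remaining lists, none of 8 endothelial markers, 8 choroid plexus markers, 8 striatal and ventral forebrain genes and 7 peripheral myelin genes passed in limma. At an unadjusted p under 0.05 they had 1, 0, 4 and 0 higher and 1, 0, 0 and 1 lower genes. Their leading members were Flt1 at -0.36 (adjusted p = 0.108) and Cldn5 at 0.37 (0.225), Kcnj13 at 1.04 (0.711) and Aqp1 at 0.20 (0.811), Penk at 1.22 (0.0589) and Six3 at 0.23 (0.138), and Egr2 at -0.73 (0.0569) and Ncmap at 0.10 (0.290).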

How the data were processed

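Mouse brain RNA was measured on 10 whole-transcript arrays, 5 ipsilateral and 5 contralateral. The authors deposited log2 signals, 1 column per array; the submitters' processing notes name Transcriptome Analysis Console 4.0. That the scale is log2 was inferred from the range, 1.97 to 19.93. The sources used here do not state the background correction, normalization, summarization or genome build. The table had 65956 rows, of which the array annotation named 1 gene for 30604, several for 2146 and none for 33206. Symbols were updated by Entrez identifier through RefSeq for GRCm38.p6 (22818 rows matched). Each gene was represented by its brightest row, so 462 dimmer rows were dropped and 30142 genes remained. No pair of arrays was identical.

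Ipsilateral minus contralateral was fitted on all genes with lmFit and eBayes (limma 3.58.1, R 4.3.3), without covariates, and p-values were adjusted by Benjamini-Hochberg. Errors are SD over arrays or SE of the fit. The labels name no batch, so none was tested. P-values measure the spread between these arrays, which the labels call biological replicates. Between same-numbered arrays, deviations from side means had correlations of 0.26, 0.25, -0.04, -0.40 and -0.03 for numbers 1 to 5. They were thus positive for numbers 1 and 2 and negative for numbers 3, 4 and 5. Choroid plexus markers had their highest mean level in number 2 on both sides (8.89 ipsilaterally and 9.58 contralaterally). Number 4 came next on both sides (7.33 and 6.93). Whether same-numbered arrays came from the same mouse was not tested. The main fit used no block, and a fixed block took the calls among the 33 genes from 3 to 0. Alternatives were a fixed or random replicate block (duplicateCorrelation, statmod 1.5.0), trended and robust variance, array weights, 3 scalings, 2 filters on dim genes (lowest 25% and 50%), the mean of a gene's rows, and each array left out. The steps were tested on simulated data.

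The 33 genes and all other lists were chosen with earlier results of these data known. All 33 may be named. From each other list the called genes are named where 5 or fewer were called, the 4 with the largest statistics where more were, and the leading 2 where none was. Bcl11b, the layer gene called higher, is named in addition. List members without a row that named them alone were not used here. Protein sequences were not used here.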

Additional observations from a re-analysis of the deposited data

Results flagged for a closer look

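In 5 of the 66 sets of 5 arrays (33 genes on 2 sides), 1 array stood apart from the rest of its side by Dixon's criterion, which flags about 1 in 20 sets by chance. All 5 were low values of contralateral replicate 4. They were Mog at 8.53 (next lowest 9.61), Mobp at 12.15 (13.42), Cnp at 10.15 (10.76), Mal at 13.33 (14.06) and Nkx6-2 at 5.52 (6.23). These genes vary together between arrays, so the 5 are not independent of each other, and the cause was not tested.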

How the results depend on the processing

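With 5 arrays a side, 3 of the 33 genes passed. This count was 0 with the replicate block (14 lower at an unadjusted p under 0.05; adjusted p of Plekhh1, Mal and Opalin 0.0646, 0.0856 and 0.0933; 2.55% of all genes lower), 6 with array weights (5.35% of all genes lower), 11 with median centring (8.70%), 5 without the lowest 25% of genes (6.52%) and 8 of 32 without the lowest 50% (10.9%), where fewer genes were tested. It ranged from 2 to 17 with 1 array left out. Of these fits, the 2 comes from leaving out contralateral replicate 1 and the 17 from leaving out contralateral replicate 4. The count of genes called higher among the 33 was 0 in every fit run. The median log2 fold change of the 33 genes stayed negative in every fit run, from -0.86 (without ipsilateral replicate 4) to -0.57 (without contralateral replicate 3). Over all genes, 369 were higher and 1305 lower. With the replicate block there were 177 and 769, with array weights 656 and 1614, with median centring 232 and 2623, and with 1 array left out 111 to 760 higher and 740 to 1607 lower. Among the 33, signs turned for 6 genes near 0, and Olig1, at 0, lay between -0.07 and 0.04 with 1 array left out. St18 was -0.01 with median centring, and with 1 array left out the values ranged from -0.2445 to 0.2705 for St18, -0.115 to 0.235 for Gsn, -0.0955 to 0.3745 for Klk6, -0.09 to 0.0275 for Gjb1, -0.094 to 0.0215 for Lpar1 and -0.17 to 0.001 for Sox10. The random replicate block, trended variance and the mean of a gene's rows left the count at 3. The replicate block also ended the calls of Hhip, Nefl, Ptprz1 and Col1a1 (adjusted p 0.107, 0.0629, 0.0811 and 0.112 in limma). Both means of Gjb1 lay below every array median, where signal over background was not shown.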
